A study of Mus musculus with 8 samples.

Results

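Cd2, Thy1, Cd5, Cd6, Cd7, Ptprc, Spn and Cd27 encode glycoproteins of the T cell surface. They were followed in virus-specific CD8 T cells without Blimp-1, a repressor of transcription that Prdm1 encodes. The 8 genes were taken by name, with every probe whose platform annotation carries one of these symbols. This gave 9 of the 24048 probes on the array, for 7 of the 8 genes, among 14776 genes named on it. Cd6 and Ptprc had 2 probes each, Cd27 matched no annotated probe, and its level was not analysed here. All 9 probes entered the fit of 11991 probes, which took those with a mean over the arrays above 6.12, the median of all probes. These genes were selected on the difference between the genotypes, which was already known when they were chosen, Cd2 and Thy1 being named for it. The differences of these genes are therefore a description and carry no p-value.

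CKO samples came from mice carrying floxed Blimp-1 alleles and a granzyme B Cre transgene (Blimp-1flox/flox x GranzymeB-cre+), and WT samples from wild-type littermates. The granzyme B promoter drives Cre in activated cytotoxic cells, so the gene is lost after activation and not in the naive cell. Both groups received lymphocytic choriomeningitis virus (LCMV) of the Armstrong strain, 200000 plaque-forming units, which causes an acute infection. On day 8, splenic CD8 cells that bound tetramers with a peptide of the viral glycoprotein or nucleoprotein were sorted, and each of 4 samples per genotype was put on 1 array. The labels give neither ages nor the number of mice behind a sample, so p-values measure the spread between samples, part of which may be technical. Values are log2 signals, which ran from 5.33 to 15.15 on the arrays.

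The members fall into several kinds of receptor. Cd2 is an adhesion receptor that in mice binds Cd48, and Thy1 is a small glycoprotein held by a glycosylphosphatidylinositol (GPI) anchor. Cd5 and Cd6 are related receptors of the scavenger receptor cysteine-rich family, and Cd5 is known for damping signals of the T cell receptor. Ptprc is CD45, the tyrosine phosphatase that keeps the Src family kinases Lck and Fyn ready to act, and Spn is CD43, a mucin densely covered with O-linked sugars. Cd7 is a receptor of the immunoglobulin superfamily known mostly from human T and natural killer cells, and Cd27 is a costimulatory receptor of the tumour necrosis factor receptor family.

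The windows around the starts of Spn and Cd5 are printed because both genes had less signal in CKO than in WT at all 4 sample numbers, as described further on, and both are in the RefSeq promoter table (GRCm38.p6). Each window runs from 250 bases before the annotated start to 50 bases after it, on the strand of the gene. Spn lies at chr7:127137774-127138073 on the minus strand and Cd5 at chr19:10738925-10739224 on the minus strand.
Spn: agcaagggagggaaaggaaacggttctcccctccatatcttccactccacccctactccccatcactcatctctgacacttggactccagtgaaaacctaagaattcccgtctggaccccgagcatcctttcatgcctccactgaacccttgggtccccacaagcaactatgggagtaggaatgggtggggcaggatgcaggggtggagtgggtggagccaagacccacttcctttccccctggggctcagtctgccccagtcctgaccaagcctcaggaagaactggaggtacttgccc
Cd5: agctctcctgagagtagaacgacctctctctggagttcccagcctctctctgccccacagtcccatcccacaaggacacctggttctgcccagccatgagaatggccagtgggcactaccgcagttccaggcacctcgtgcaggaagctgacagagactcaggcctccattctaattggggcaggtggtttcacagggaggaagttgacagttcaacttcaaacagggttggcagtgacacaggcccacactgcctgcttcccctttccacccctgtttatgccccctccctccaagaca
The letters GTGAAAG, the core of sites that Blimp-1 is known to bind and one that resembles sites of interferon regulatory factors, were searched on both strands. They were in 0 of 5 windows of the 4 members with an entry, Spn, Cd5, Ptprc and Cd27, so no base is in capitals. Of all genes in the table, 4.89% of 27025 held them in a window. This says only that the letters are not in these windows.

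Prdm1, the gene deleted, had 2 probes of opposite direction. One was at 6.29 to 6.65 in CKO and 7.51 to 8.07 in WT, and the other at 8.65 to 9.27 in CKO and 5.59 to 6.11 in WT. Where these probes lie relative to the deleted part is not known here. All 6 measured CD8 T cell markers were above the median of probes. Of these 0 passed the threshold of 0.05 on limma's adjusted p, against 6.67% of all tested probes. Their mean level was 12.917 to 13.055 in CKO and 13.059 to 13.201 in WT, narrowly without overlap. The 2 with an unadjusted p under 0.05 were lower in CKO. Cd8b1 was at 14.14 to 14.50 in CKO and 14.55 to 14.71 in WT, a difference of -0.33 log2 (limma adjusted p = 0.0898). Cd3e was at 12.69 to 13.06 in CKO and 12.98 to 13.41 in WT, a difference of -0.38 (limma adjusted p = 0.0982). The other measured markers differed by -0.06 to 0.06. Of 4 CD4 T cell markers, Cd4, Cd40lg and Foxp3 were dim, at 5.66 to 6.13 in CKO and 5.78 to 6.15 in WT. The other, Zbtb7b, was brighter, at 6.22 to 6.53 in CKO and 6.42 to 6.89 in WT, with a difference of -0.30 log2 (limma adjusted p = 0.18, unadjusted p under 0.05). Samples numbered 2 stood apart in both groups, with 18S ribosomal RNA at 10.8 in CKO2 and 11.2 in WT2, while the other samples had 12.7 to 12.9 in CKO and 12.5 to 13.0 in WT. Haemoglobin transcript Hba-a1 was at 13.7 in CKO1, 6.60 to 8.29 in the other CKO samples and 12.1 to 13.7 in WT. Less RNA per cell and fewer cells of a type cannot be told apart in sorted pools such as these.

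Of the 9 probes, 2 were lower in CKO past the threshold, those of Cd2 and Thy1, and 1 was higher, that of Cd7. Over all tested probes 2.54% were called lower and 4.13% higher (limma with Benjamini-Hochberg adjustment). Since the genes were chosen on this contrast, these calls and their dependence on single samples describe the genes and test nothing. The values of the groups did not overlap for 3 probes, those of Cd2, Thy1 and Cd5, as for 13.7% of tested probes. The median difference of the 9 probes, CKO minus WT, was -0.19 log2, and that of all tested probes was -0.01. Both genotypes carry sample numbers 1 to 4, and deviations from the group means correlated between samples of the same number. For numbers 3 and 4 the crossed pairs correlated more, CKO3 with WT4 at 0.263 and CKO4 with WT3 at 0.254, against 0.178 and 0.224. The data do not single out the pairing by number there. The difference is also given within each number of the labels. It was below 0 at all 4 numbers for 4 probes, those of Cd2, Thy1, Cd5 and Spn, and above 0 at all 4 for that of Cd7, as for 17.4% and 16.4% of tested probes.

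**Figure D1:**
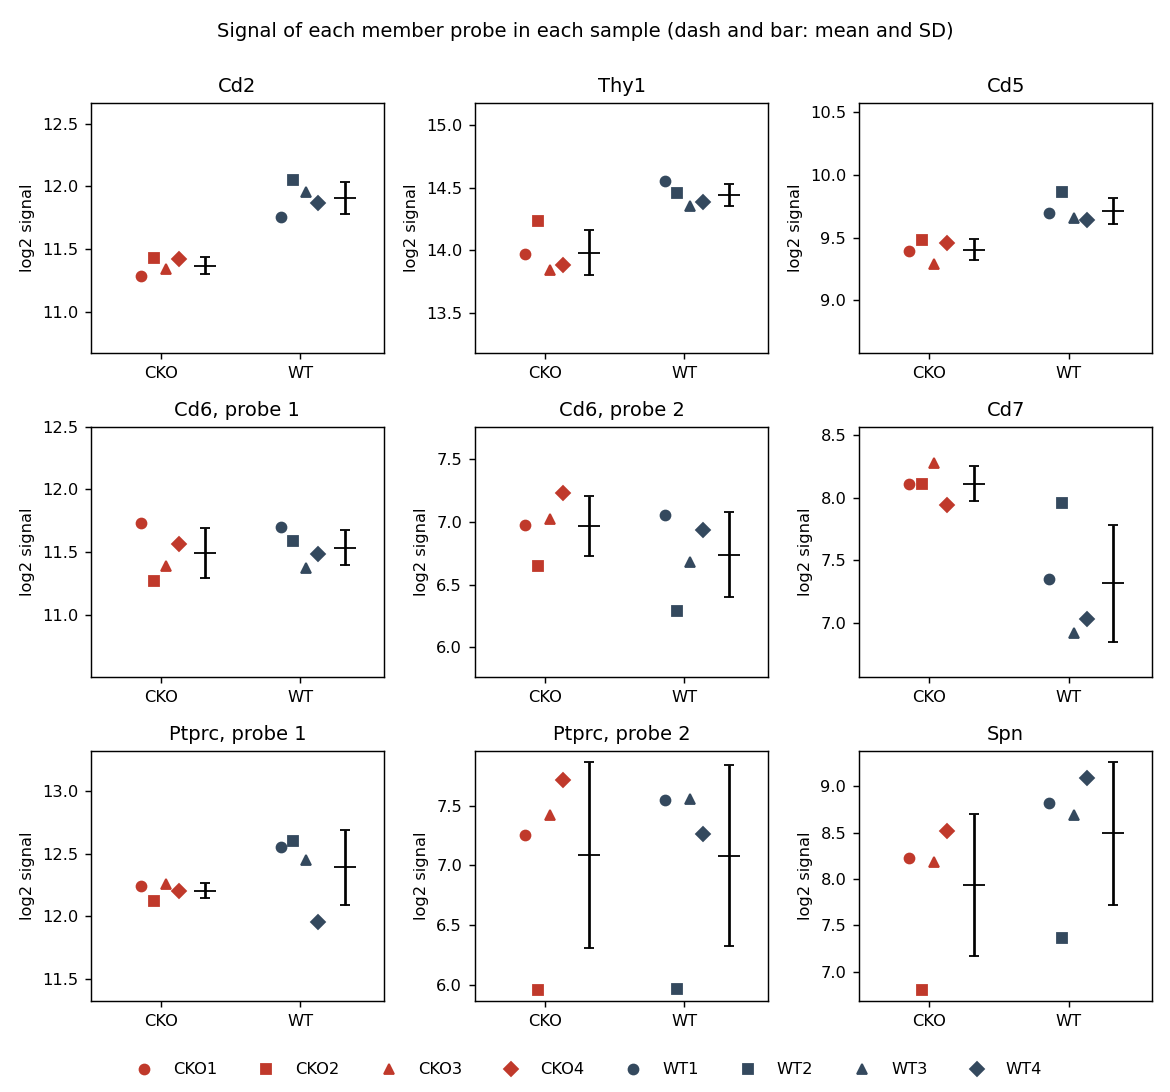
Log2 signal (vertical axis) of each of the 9 probes in the 4 CKO samples, left, and the 4 WT samples, right, with the mean and SD as a dash and bar. The groups are apart for Cd2, Thy1 and Cd5, and the samples numbered 2 lie lowest of both groups for Spn, the second probe of Ptprc and the second probe of Cd6.

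Cd2 was lower in every CKO sample than in any WT sample. Its signal was 11.28, 11.43, 11.34 and 11.42 in CKO1 to CKO4, against 11.76, 12.05, 11.96 and 11.86 in WT1 to WT4. The CKO values spanned less than the distance between the groups. The mean was 11.37 ± 0.07 in CKO and 11.91 ± 0.12 in WT (SD, n = 4 each), a difference of -0.54 log2 (SE 0.09, 95% interval -0.75 to -0.33), which corresponds to a 1.45-fold lower signal. Within numbers 1 to 4 the differences were -0.48, -0.62, -0.62 and -0.45. With each of the 8 samples left out in turn the difference was -0.59 to -0.49, it was -0.56 without both samples numbered 1, and it was -0.55 in samples numbered 1 and 2 alone, where Cd2 was not called.

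B cells also carry Cd2 in mice, and markers of B cells were therefore read beside it. Of 7 such markers 5 were measured, with a mean level of 6.41 to 6.58 in CKO and 6.52 to 6.81 in WT. Cd79b, a chain of the B cell receptor, was at 7.75, 8.06, 7.74 and 7.99 in CKO1 to CKO4 and at 7.87, 8.75, 8.33 and 8.19 in WT1 to WT4. Its partner Cd79a was at 6.27 to 6.58 in CKO and 6.48 to 7.49 in WT, and neither passed the threshold. Of the 3 B cell markers bright enough to be tested, 0 passed in limma and 2 had an unadjusted p under 0.05. Immunoglobulin probes, outside these markers and read after their values were seen, went both ways. That of the mu heavy constant chain was higher in CKO by 1.16 log2, without overlap, and passed the threshold. Those of a gamma heavy and the kappa constant chain had lower means in CKO and did not pass. The 3 tested markers, Cd79a, Cd79b and Ebf1, all had lower means in CKO, with differences of -0.54, -0.40 and -0.07 log2. Pax5 and Blk, a transcription factor and a kinase of B cells, were dim, at 5.77 to 6.13 in CKO and 5.82 to 6.22 in WT. Among 8092 genes, Cd79b had the pattern most like that of Cd2 once the group means were removed (Pearson r = 0.97 over the 8 arrays), followed by Tlcd1, Nsun5, Yipf2 and Rab24 at 0.95 to 0.96. With only 8 arrays, the highest of 8092 correlations can be this high without any link. Ranks of this kind, here and for Thy1, are therefore a description. Markers of other cells also differed in level between the samples. Klrb1c, a receptor of natural killer cells, was at 6.63 to 6.77 in CKO and at 9.95, 9.91, 6.72 and 8.04 in WT1 to WT4, a difference of -1.96 log2 (limma adjusted p = 0.0885), while the other 3 markers of those cells were dim, at 5.70 to 6.21 in CKO and 5.78 to 6.12 in WT. Itgax, which is CD11c of dendritic cells and is also found on activated CD8 T cells, was at 10.06, 9.61, 9.50 and 9.48 in CKO1 to CKO4 and at 11.24, 9.62, 11.38 and 11.27 in WT1 to WT4, a difference of -1.21 (limma adjusted p = 0.068). Both had an unadjusted p under 0.05, and the mean level over the markers was 6.03 to 6.12 in CKO and 6.11 to 6.95 in WT for the 4 of natural killer cells, and 6.79 to 7.03 in CKO and 6.92 to 7.41 in WT for the 4 of dendritic cells. The 6 measured macrophage and monocyte markers averaged 6.36 to 8.14 in CKO and 6.47 to 7.19 in WT, with the highest level in CKO4, where Lyz2 was at 10.3 and C1qb at 9.57. The 3 measured neutrophil markers averaged 7.10 to 7.71 in CKO and 7.21 to 8.72 in WT. The part of RNA from any of these cells in the differences of Cd2 and Thy1 was not tested. Over the values themselves the nearest genes were Sfi1, Acsl4, Irak3, Fgf13 and 0610010K14Rik, at r = 0.96 to 0.97, a measure that includes the difference between the genotypes.

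Thy1 was among the brightest probes of the array, above 99.7% of them by its mean over the 8 arrays. It was at 13.97, 14.23, 13.84 and 13.88 in CKO1 to CKO4, against 14.55, 14.46, 14.35 and 14.39 in WT1 to WT4. CKO2 was the CKO sample nearest to WT, 0.12 log2 below WT3. The mean was 13.98 ± 0.18 in CKO and 14.44 ± 0.09 in WT (SD, n = 4 each), a difference of -0.46 log2 (SE 0.11, 95% interval -0.70 to -0.22), or 1.37-fold lower in CKO. Within numbers the differences were -0.58, -0.23, -0.51 and -0.51. The call was kept without CKO2, at -0.54, and lost without any other single sample, at -0.49 to -0.41. The 5 genes nearest to Thy1 after removal of the group means were Mau2, Olfr10, Fam126a, Mtif3 and Cab39l (r = 0.96 to 0.99 over 8 arrays). Over the values themselves they were Anxa4, Tbx21, Dtx1, Znrd2 and Fam126a (r = 0.97 to 0.99).

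Cd7 went the other way and had the greatest difference of the 9 probes. Its signal was 8.11, 8.11, 8.28 and 7.94 in CKO1 to CKO4, against 7.35, 7.96, 6.92 and 7.04 in WT1 to WT4. WT2 lay within the CKO values, whereas the other WT samples were below them all. The mean was 8.11 ± 0.14 in CKO and 7.32 ± 0.47 in WT (SD, n = 4 each), a difference of 0.79 log2 (SE 0.20, 95% interval 0.35 to 1.24), or 1.73-fold higher in CKO. Within numbers it was 0.76, 0.15, 1.36 and 0.90, a wider spread than for 95.7% of tested probes. The call was kept without WT2, at 1.01, and lost without any other single sample, at 0.66 to 0.85. The difference was 1.01 without both samples numbered 2, 1.13 in samples numbered 3 and 4 alone, and 0.46 in numbers 1 and 2 alone, where Cd7 was not called. The mean of Cd7 lay above 77.1% of probes, so its signal was modest in both genotypes.

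Cd5 and Cd6, related receptors whose genes lie close together on chromosome 19 with 1 annotated gene between them, did not show the same values. Cd5 was at 9.39, 9.48, 9.29 and 9.46 in CKO1 to CKO4, against 9.70, 9.86, 9.66 and 9.64 in WT1 to WT4. The groups were apart, by 0.16 log2 between the nearest samples CKO2 and WT4. The mean was 9.41 ± 0.08 in CKO and 9.71 ± 0.10 in WT (SD, n = 4 each), a difference of -0.31 log2 (SE 0.09, 95% interval -0.51 to -0.10). It was not called, and with 50 added to the linear signals, at -0.29, it was.

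For Cd6, which binds the adhesion molecule Alcam, the first and brighter probe was at 11.73, 11.27, 11.39 and 11.56 in CKO1 to CKO4 and at 11.70, 11.59, 11.37 and 11.48 in WT1 to WT4. The groups overlapped almost fully, with a difference of -0.05 log2 and a 95% interval from -0.32 to 0.22. The second probe was dim, at 6.65 to 7.23 in CKO and 6.29 to 7.05 in WT, with a difference of 0.23 (95% interval -0.16 to 0.62). Neither Cd6 probe passed.

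Ptprc, the phosphatase CD45, gave bright signal on its first probe. It was at 12.25, 12.12, 12.25 and 12.20 in CKO1 to CKO4, against 12.56, 12.60, 12.45 and 11.95 in WT1 to WT4. WT4 was below all CKO samples, whereas the other WT samples were above them. The mean was 12.21 ± 0.06 in CKO and 12.39 ± 0.30 in WT (SD, n = 4 each), and the difference of -0.19 log2 (95% interval -0.50 to 0.12) did not pass. Without WT4 it was -0.33 and did not pass either.

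The second Ptprc probe was dim and lowest in both samples numbered 2. It was at 7.25, 5.96, 7.42 and 7.72 in CKO1 to CKO4 and at 7.54, 5.96, 7.56 and 7.26 in WT1 to WT4. Both samples numbered 2 were 1.3 log2 below the next sample of their group. The mean difference was 0.01 (95% interval -0.94 to 0.95). Both probes are annotated to the same transcript accession, and where on it they lie is not known here.

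Spn, the mucin CD43, combined the pattern of the sample numbers with a difference between the genotypes that was steady within numbers. Its signal was 8.23, 6.80, 8.18 and 8.51 in CKO1 to CKO4, against 8.82, 7.37, 8.69 and 9.09 in WT1 to WT4. CKO2 was 1.38 log2 below the next CKO sample and WT2 was 1.33 below the next WT sample, so the groups overlapped. Leaving out both samples numbered 2, the CKO values lay below all WT values. Within numbers 1 to 4 the differences were -0.60, -0.56, -0.51 and -0.57, an SD of 0.04, and only 0.718% of tested probes had a smaller SD of their same-numbered differences. This SD, and the SE with the block below, rest on pairing by the labels' numbers. For numbers 3 and 4 the correlations between arrays did not single out that pairing.

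The SD of Spn within a genotype was 0.77 in both, and its mean difference of -0.56 log2 (SE 0.42, 95% interval -1.50 to 0.38) was not called without pairing. Leaving out CKO2 alone gave -0.18, and leaving out WT2 alone gave -0.94. With the sample number as a block the same difference had an SE of 0.08 and a 95% interval of -0.75 to -0.37. Without the block it was -0.56 (SE 0.14) without both samples numbered 2, -0.54 (SE 0.17) in samples numbered 3 and 4 alone, -0.55 (SE 0.53) without both samples numbered 1 and -0.58 (SE 0.60) in samples numbered 1 and 2 alone. Of these 4 subsets Spn was called in 1, that without both samples numbered 2. With the block, 3 of the 9 probes were lower past the threshold, those of Cd2, Thy1 and Spn, and 1 higher, that of Cd7, while 5.10% of tested probes were called lower and 6.25% higher.

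**Figure D2:**
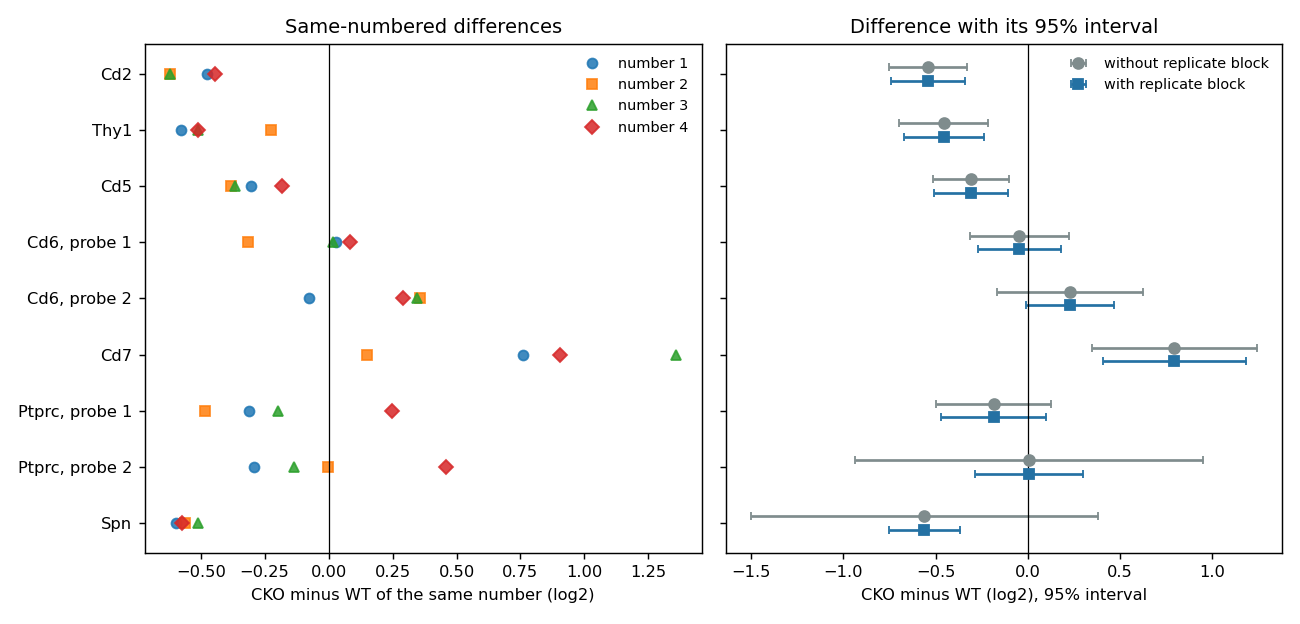
Left, CKO minus WT of samples with the same number, in log2, for each probe, with 1 point per number. Right, the difference with its 95% interval from limma, without and with the sample number as a block. For Spn the 4 points lie between -0.60 and -0.51, and the interval runs from -1.50 to 0.38 without the block and from -0.75 to -0.37 with it.

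The samples numbered 2 were the lowest of their group in both genotypes for 3 of the 9 probes, those of Spn, the second Ptprc probe and the second Cd6 probe, as for 16.8% of tested probes. By at least 1 log2 in both groups, a limit chosen after the values were seen, they were lowest for Spn and the second Ptprc probe, and for 0.384% of tested probes, or 46 of 11991. The same 2 samples had the lowest 18S ribosomal RNA signal. On Cd2, Thy1, Cd5 and Cd7 they were not the lowest of either group. Whether the ribosomal RNA signal and that of Spn and Ptprc have a common origin was not tested.

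**Figure D3:**
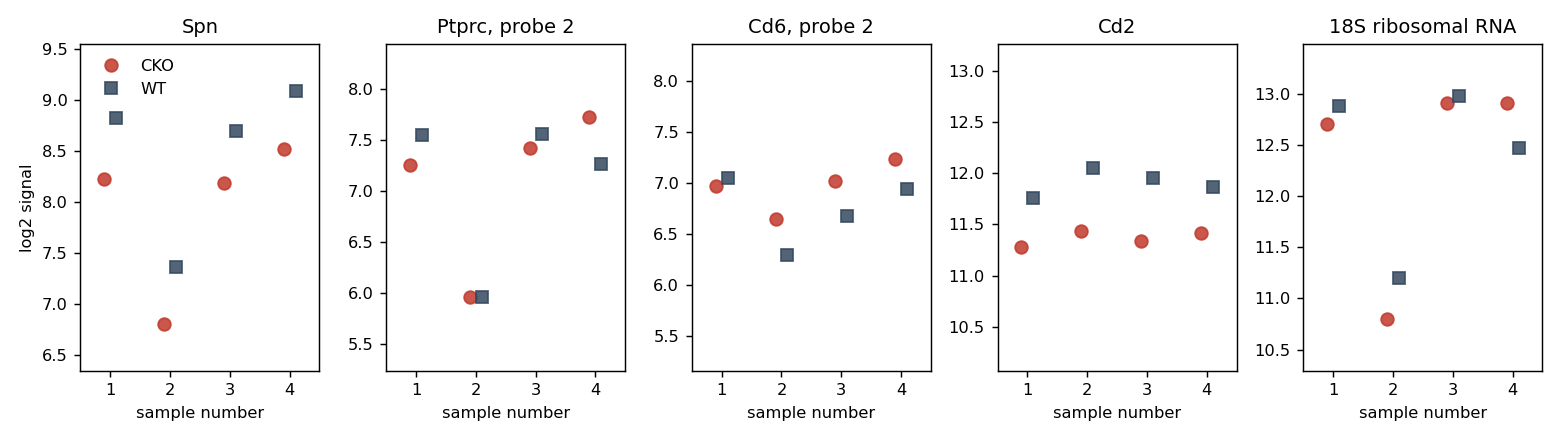
Log2 signal of 4 probes of the set and of the 18S ribosomal RNA control against sample number, with CKO as circles and WT as squares. The samples numbered 2 are low for Spn, the second Ptprc probe and the 18S control in both genotypes, and not for Cd2.

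To place these genes among those they act with, 5 lists were read: ligands, cytoplasmic partners, enzymes that glycosylate such proteins or add the GPI anchor, splicing regulators of Ptprc, and other surface glycoproteins of T cells. The lists were chosen with earlier results of these data known. Their counts and the adjusted p of their genes therefore describe the lists and do not test them. Each gene was taken by its brightest tested probe. Of 72 genes tested, 3 were higher, 8 lower and 61 did not pass, with a median difference of -0.03 log2. Over all 8095 genes tested 4.73% were called higher and 3.04% lower, with a median of -0.01. With the sample number as a block, 5 of the 72 were higher and 13 lower, against 6.87% and 5.69% of all genes tested. An unadjusted limma p under 0.05 was found for 2 of 10 ligands, 2 of 17 cytoplasmic partners and 2 of 8 splicing regulators. It was found for 7 of 15 glycosylation and anchor genes and 11 of 22 other glycoproteins. The share of all tested genes under that limit is not given here, so these counts and those of the markers have no background.

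None of 10 ligands and counter-receptors passed in limma, higher or lower (median 0.01 log2), and 2 had an unadjusted p under 0.05. Cd48, the ligand of Cd2 in mice, was at 11.46 to 12.04 in CKO and 11.63 to 12.69 in WT, with a difference of -0.31 (limma adjusted p = 0.472). Cd70, the ligand of Cd27, was dim, at 6.53 to 6.92 in CKO and 6.19 to 6.66 in WT (adjusted p = 0.247). The members with the smallest p were Lgals3, a galectin that binds sugars of surface glycoproteins, at -0.32 (adjusted p = 0.134), and Cd72, at 0.55 (adjusted p = 0.136).

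Of 17 cytoplasmic partners 1 was lower and 16 did not pass (median -0.003 log2). The member that fell was Ubash3b, a phosphatase that restrains signals of the T cell receptor. It was at 6.96, 6.88, 6.58 and 6.54 in CKO1 to CKO4 and at 7.72, 7.93, 7.80 and 7.14 in WT1 to WT4, with no overlap. The difference was -0.91 log2 (SE 0.18, limma adjusted p = 0.0133), and without CKO3 the call was lost (adjusted p = 0.0534). The related Ubash3a, which binds the ubiquitin ligase Cbl, differed by 0.07 (adjusted p = 0.841). Ptprcap, a protein that associates with CD45, differed by -0.26 (adjusted p = 0.468), and Cd2bp2 and Pstpip1, which bind the tail of Cd2, by 0.09 and -0.04 (adjusted p = 0.661 and 0.892).

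Enzymes of glycosylation and GPI anchoring included 4 that were lower, none higher and 11 that did not pass, of 15 tested (median -0.19 log2). With the sample number as a block 5 were lower and 1 higher. Over all genes tested 3.04% were lower and 4.73% higher, or 5.69% and 6.87% with the block. Galnt10 and Galnt3 start O-linked chains of the kind that cover Spn. Galnt10 was at 7.64, 7.62, 6.73 and 6.97 in CKO1 to CKO4, against 9.24, 9.34, 8.70 and 9.20 in WT1 to WT4, without overlap. The difference was -1.88 log2 (limma adjusted p = 0.00143), although a second, dimmer Galnt10 probe differed by -0.30 and was not called. Galnt3 was at 7.02 ± 0.09 in CKO and 7.70 ± 0.26 in WT (SD, n = 4 each), a difference of -0.68 (limma adjusted p = 0.0132), a call lost without CKO3 (adjusted p = 0.0537).

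B4galt1, which adds galactose, was at 9.60 ± 0.20 in CKO and 10.19 ± 0.20 in WT (SD, n = 4 each), a difference of -0.59 log2 (limma adjusted p = 0.0256). St3gal4, a sialyltransferase, was at 7.52 ± 0.32 in CKO and 8.17 ± 0.14 in WT, a difference of -0.65 (limma adjusted p = 0.0335). Leaving out WT2, WT4, CKO3 or CKO4 ended the call of B4galt1 (adjusted p = 0.0583 to 0.086), and leaving out any sample other than CKO2 ended that of St3gal4 (0.0575 to 0.114). Gcnt1, which builds the branched core 2 chains found on CD43 of effector CD8 T cells, was named after its values were seen. It was at 8.09, 8.41, 8.86 and 8.97 in CKO1 to CKO4 and at 7.76, 7.69, 7.57 and 8.38 in WT1 to WT4, with WT4 among the CKO values. Its difference of 0.73 log2 passed with the sample number as a block (limma adjusted p = 0.0168) and did not without it (0.0853). A dimmer Gcnt1 probe differed by 0.27 and was not called. The GPI anchor genes Piga, Pigk and Pgap2 differed by -0.09, 0.09 and -0.19 and did not pass (adjusted p = 0.678 to 0.737).

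None of 8 splicing regulators of Ptprc passed in limma, higher or lower (median 0.06 log2), and 2 had an unadjusted p under 0.05. Hnrnpll, which is known to promote skipping of variable CD45 exons, was at 8.78 to 9.29 in CKO and 8.69 to 9.26 in WT (limma adjusted p = 0.786). The smallest p-values were those of Ptbp1 at 0.22 log2 (adjusted p = 0.216) and Srsf3 at 0.31 (adjusted p = 0.22).

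Of all genes tested 4.73% were called higher and 3.04% lower, and with the block 6.87% and 5.69%. Among 22 other surface glycoproteins and associated chains, 3 were higher, 3 lower and 16 did not pass (median -0.06 log2). With the sample number as a block 3 were higher and 7 lower, the added ones being Cd226, Cd47, Cd96 and Cd52, with differences of -0.62, -0.36, -0.70 and -0.50 (limma adjusted p = 0.0193 to 0.0418 with the block and 0.0764 to 0.163 without it). Emb, the adhesion protein embigin, rose, with 12.04, 11.91, 12.22 and 12.04 in CKO1 to CKO4 against 11.06, 11.18, 10.83 and 10.85 in WT1 to WT4, a difference of 1.07 log2 (limma adjusted p = 0.000874). The tetraspanin Cd9 was at 9.34 ± 0.33 in CKO and 8.05 ± 0.46 in WT (SD, n = 4 each), a difference of 1.29 (limma adjusted p = 0.00979). The costimulatory receptor Cd28 was higher by 0.63 (limma adjusted p = 0.0156), a call lost without CKO3, at 0.58 log2, or CKO4, at 0.58. Its dimmer probe differed by 0.67 and was not called.

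Selplg, which encodes the selectin ligand PSGL-1, a mucin like Spn, was lower. It was at 13.75, 13.83, 13.54 and 13.60 in CKO1 to CKO4, against 14.28, 14.33, 14.14 and 14.28 in WT1 to WT4, a difference of -0.58 log2 (SE 0.10, limma adjusted p = 0.00749). The groups did not overlap. The tetraspanin Cd37, abundant also on B cells, was at 9.44 ± 0.26 in CKO and 10.38 ± 0.25 in WT (SD, n = 4 each), a difference of -0.94 (limma adjusted p = 0.00727). The B cell markers given beside Cd2 apply to it too. Adgre5, an adhesion receptor of leukocytes known as CD97, was lower by 0.54 log2 on its brighter probe, at 10.77 ± 0.21 in CKO and 11.31 ± 0.07 in WT (limma adjusted p = 0.0196), a call lost without WT1 (0.0568), and its dimmer probe was not called.

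**Figure D4:**
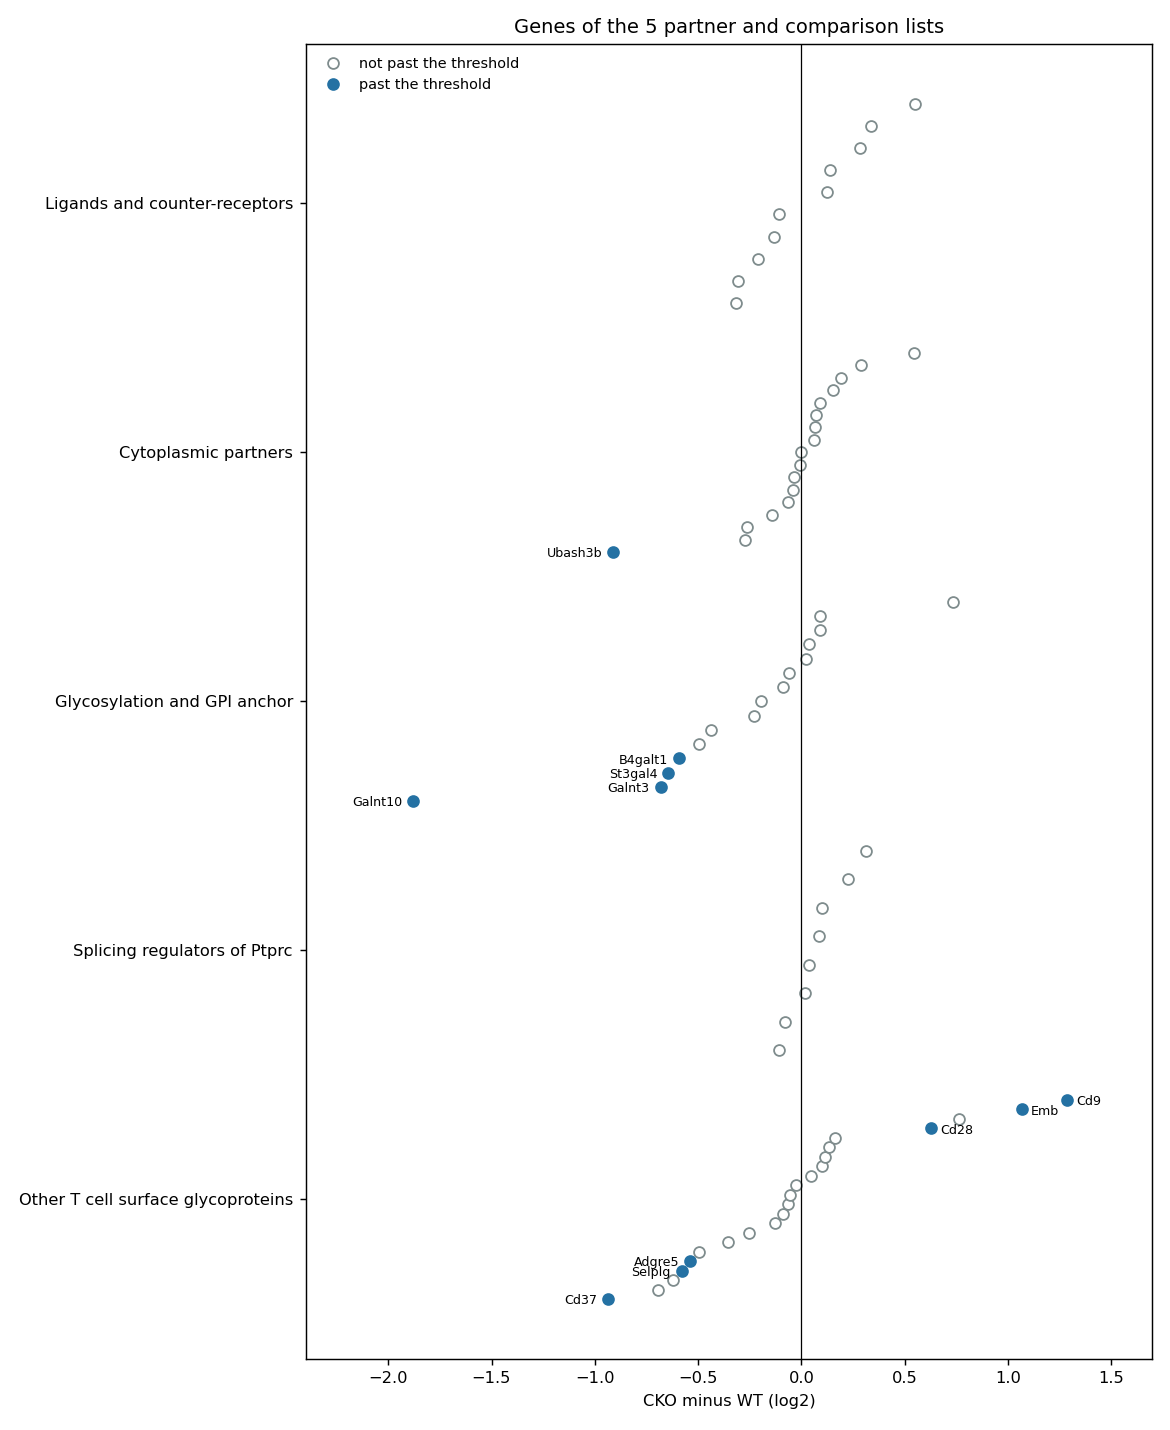
Difference in log2, CKO minus WT, of each tested gene of the 5 lists, 1 point per gene and spread vertically by rank within its list. Filled points passed the threshold of 0.05 on limma's adjusted p: 8 lie below 0, of which 4 are enzymes of glycosylation, and 3 lie above it. Over all genes tested 3.04% were called lower and 4.73% higher. The lists were chosen with earlier results known.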

How the data were processed

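RNA of 8 sorted samples, 4 CKO and 4 WT, was amplified and labelled with biotin using a kit for Illumina arrays, as the labels' protocols say, and each was measured on 1 single-colour array. The authors deposited 1 log2 value per probe and array. For the scanner, background correction and normalization method, the sources used here give nothing. The columns share their median of 6.15 and their maximum of 15.15, so the deposited log2 values had been normalized between arrays. They were not centred per probe, and a higher value means more signal. Whether background was subtracted is unknown, and a floor above 5 compresses differences of dim probes. Precision is limited by the number of arrays. Detection p-values were not used here.

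Gene symbols came from GEO's platform annotation, updated through the gene ID to a RefSeq gene table (GRCm38.p6). Of all probes, 19398 had 1 symbol, 0 had several and 4650 had none. The 18S control was listed under an unrelated gene, and that name was dropped. Probes with a mean above 6.12 were compared in R 4.3.3 with limma 3.58.1 (lmFit, eBayes), CKO minus WT, two-sided, with Benjamini-Hochberg adjustment over 11991 probes and a threshold of 0.05. The fit was checked on simulated data. The members and gene lists were chosen with earlier results of these data known. Named genes were all members, the list genes past the threshold (at most 4 in each direction), the 2 with the smallest p where none passed, and the 5 genes most like Cd2 or Thy1. List genes outside this rule (Cd48, Cd70, Ubash3a, Ptprcap, Cd2bp2, Pstpip1, Gcnt1, Piga, Pigk, Pgap2, Hnrnpll and those named for the block) were picked after their values were seen, for their role.

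Deviations of same-numbered samples from their group means correlated at 0.318, 0.468, 0.178 and 0.224 over tested probes, all above the limit of 0.1. The labels' replicate numbers were therefore treated as pairs in the fits with the block, and the main fit was unpaired. CKO4 with WT3 and CKO3 with WT4 correlated more than with their own numbers, at 0.254 and 0.263. The pairing of numbers 3 and 4 thus rests on the labels. Alternatives were a second quantile normalization, 50 added to the linear value, no filter, a stricter filter at 7.46, the block, trend and robust settings, the mean of a gene's probes, and fits without single samples or sample numbers.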

Additional observations from a re-analysis of the deposited data

How the results depend on the processing

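No setting reversed the difference of Cd2, Thy1, Cd5, Cd7, Spn or the second Cd6 probe. Reversals were of small differences that did not pass in any fit. For the first Cd6 probe, at -0.05 log2, the value was 0.043 without both samples numbered 2, with or without the replicate block, 0.051 in samples numbered 3 and 4 alone, and -0.13 to 0.026 with 1 sample left out. For Cd6 as the mean of its probes it was 0.091. For the first Ptprc probe it was 0.025 in samples numbered 3 and 4 alone, and for the second -0.15 in numbers 1 and 2 alone and -0.37 to 0.38 with 1 sample left out.

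With the replicate block, 749 probes were higher and 611 lower, against 495 and 305 without it, and 796 of the 800 calls were shared. In the lists it gave 5 higher and 13 lower, against 3 and 8, adding Gcnt1 and Fyn as higher and St3gal6, Cd226, Cd47, Cd96 and Cd52 as lower; among the members it added Spn, and no call of a member or list gene was lost. Without both samples numbered 2, 464 probes were lower (481 with the replicate block, added after seeing the data), and 7 list genes higher (8 with the block). In samples numbered 3 and 4 alone, 553 probes were lower and 8 list genes higher. Without both samples numbered 1, 223 probes were higher and 120 lower, of the members 0 higher and 1 lower, and 4 list genes lower. In numbers 1 and 2 alone, with 4 arrays, 13 probes were higher and 8 lower, 0 members either way, and 0 list genes higher and 1 lower. With 1 sample left out, 242 to 559 probes were higher and 121 to 427 lower, the lowest counts without CKO3, 0 to 1 member probes higher and 1 to 2 lower, and 2 to 4 list genes higher and 4 to 9 lower. The stricter filter left out the second probes of Cd6 and Ptprc, which have no value there. The cause of these changes was not tested.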
